A study of Mus musculus with 13 samples.

Results

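ESR1 occupancy with an agonist alone was compared with ESR1 occupancy with an antagonist alone, using 6 of the 13 samples of the series: the libraries labelled Estrogen (10 nM) replicates 1 to 3 and those labelled Fulvestrant (100 nM) replicates 1 to 3. They were chosen by these treatment labels, and no measured value entered the choice. All were ESR1 ChIP-seq libraries from primary skeletal muscle fibroblasts of Aromhum mice, which carry the human aromatase gene in addition to their own, so the vehicle and fulvestrant cells had the same transgenic background as the E2 cells. E2 was given at 10 nM for 1 h without fulvestrant, and fulvestrant at 100 nM without added E2. Their time label is also 1 h, but the study's methods put fulvestrant or DMSO on the cells before E2 or ethanol, so fulvestrant acted for longer. Vehicle cells received ethanol and DMSO, and their 3 libraries are given as the background. The cells came from the lower abdominal muscle (LAM) and were starved of serum before treatment, and neither age nor the number of animals behind each library was given in the labels. The replicates may thus differ only technically, and the spread between them is that of these samples.

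ESR1 (estrogen receptor α) is a nuclear receptor that binds DNA as a dimer once it has taken up estradiol (E2). Its preferred site is the estrogen response element (ERE), an inverted repeat of a short half-site, and it also reaches DNA through partners such as AP-1, the FOS and JUN dimer. Fulvestrant occupies the same ligand pocket, blocks the activating fold of the receptor, recruits no coactivator and leads to receptor loss. In fibroblasts, ESR1 is known for its control of growth factor, matrix and progesterone receptor genes.

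The data were lists of peaks, each with its position, its summit and the peak caller's fold, p and q values. Peaks were ranked within each list by −log10 q, so that rank 1 is the strongest peak of a library. The E2 lists held 104571, 60910 and 68971 peaks, and the fulvestrant lists 42541, 80754 and 45755. The numbers of reads were not used here, but the deposited fold and p values of a peak give back the whole number of fragments over its summit (within 0.1 of a whole number for 100% of the peaks), and with it the background of each library. By that background, E2 replicate 1 had 39.1% and fulvestrant replicate 2 had 75.8% of the depth of the median library, against 99.7% to 106% for the other 4. These 2 libraries stood apart in another way as well. Repeat-masked sequence filled over 50% of the window around the summit in 59.4% of the peaks of E2 replicate 1 and 27.9% of those of fulvestrant replicate 2, against 5.91% to 7.61% in the other 4 libraries. Over the 10344 regions with a peak in all 6 lists, the rank scores of these 2 libraries correlated with each other at r = 0.75, a description over regions of the genome, while E2 replicate 1 correlated with E2 replicates 2 and 3 at 0.34 and 0.39. Results are therefore given with all 6 libraries and with E2 replicates 2 and 3 against fulvestrant replicates 1 and 3. Promoter peaks at fibroblast marker genes were present: 3 of 6 (Pdgfra, Col1a1, Col1a2) had one in all 6 libraries, and none of the 6 myogenic, 3 endothelial and 3 immune markers did, although the macrophage gene Cd68 had one in 5 libraries. The 3 endothelial markers, the myogenic Pax7, Des and Ckm and the fibroblast marker Thy1 had promoter peaks only in E2 replicate 1 or fulvestrant replicate 2. A peak does not measure expression.

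EREs under E2 peaks are shown first, because the treatments differed in ERE content at the top of the lists in the 4 libraries of like depth. Each line is reference sequence of the mm10 build (GRCm38, RefSeq) on the plus strand, 5′ to 3′, with the bases matching GGTCANNNTGACC with at most 1 mismatch in capitals. The first 7 lie at regions ranked higher in E2 replicates 2 and 3 than in fulvestrant replicates 1 and 3. None of them passed the main test of ranks given below. Each is named by the nearest start of a protein-coding gene.
Mpped2, chr2:106576943-106577023: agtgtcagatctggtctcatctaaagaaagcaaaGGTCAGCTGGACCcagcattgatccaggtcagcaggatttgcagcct
Cirbp, chr10:80166016-80166096: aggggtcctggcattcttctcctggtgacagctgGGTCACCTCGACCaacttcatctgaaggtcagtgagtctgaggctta
Mast2, chr4:116464804-116464884: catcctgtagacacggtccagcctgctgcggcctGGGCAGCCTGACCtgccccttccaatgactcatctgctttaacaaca
Fbxo32, chr15:58204242-58204322: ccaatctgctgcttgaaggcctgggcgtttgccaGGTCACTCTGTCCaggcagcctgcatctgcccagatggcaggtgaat
Cmklr1, chr5:113633154-113633234: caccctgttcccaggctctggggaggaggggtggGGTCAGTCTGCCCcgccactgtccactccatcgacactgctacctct
Rai1, chr11:60176782-60176862: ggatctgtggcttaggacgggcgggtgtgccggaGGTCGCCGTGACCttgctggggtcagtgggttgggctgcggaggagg
Greb1, chr12:16760497-16760577: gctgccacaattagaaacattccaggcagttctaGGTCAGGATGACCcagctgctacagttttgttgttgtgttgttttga
The Greb1 match had 0 mismatches and the other 6 had 1 each. The next 2 lie at regions among the strongest of both treatments, and both had 0 mismatches.
Rybp, chr6:100060027-100060107: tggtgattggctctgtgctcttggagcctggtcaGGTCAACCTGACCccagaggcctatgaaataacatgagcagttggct
Tprg, chr16:25220712-25220792: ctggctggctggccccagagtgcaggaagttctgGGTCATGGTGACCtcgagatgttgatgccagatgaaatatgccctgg
The last is the sequence around the fulvestrant replicate 1 summit of the region ranked higher with fulvestrant that had the smallest p with all 6 libraries. It held no ERE within 100 bp of the summit, and nothing in it is capitalized.
Fkbp5, chr17:28512754-28512874: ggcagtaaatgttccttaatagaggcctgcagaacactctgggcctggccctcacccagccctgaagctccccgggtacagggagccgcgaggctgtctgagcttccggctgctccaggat

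ERE content at the top of the lists was high with E2 and near the vehicle level with fulvestrant in the 4 libraries of like depth. The ERE was found within 100 bp of the summit in 32.1% and 24.9% of the 1000 top-ranked peaks of E2 replicates 2 and 3. The share was 9.3% and 11.9% in fulvestrant replicates 1 and 3, and 11.5%, 10.2% and 12.3% in the vehicle libraries. The 95% Wilson intervals of these E2 libraries began at 22.3% or above and those of these fulvestrant libraries ended at 14.1% or below; they cover counting error only. Windows 2 kb upstream of the same peaks held an ERE in 0.3% to 0.7% in all 6 libraries. E2 replicate 1 and fulvestrant replicate 2 had 1.4% and 3.1%, the lowest of the 12 lists, so that with all 6 libraries the means were 19.5% ± 16.1 (SD, n = 3) with E2 and 8.1% ± 4.52 (SD, n = 3) with fulvestrant, a difference smaller than the spread among the E2 libraries (exact permutation test, two-sided, p = 0.4, adjusted p = 0.714 over 25 measures). An exact test of 3 against 3 libraries cannot go below p = 0.1, nor 2 against 2 below 0.333. Without these 2 libraries the means were 28.5% and 10.6% (exact p = 0.333, the smallest possible).

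**Figure D1:**
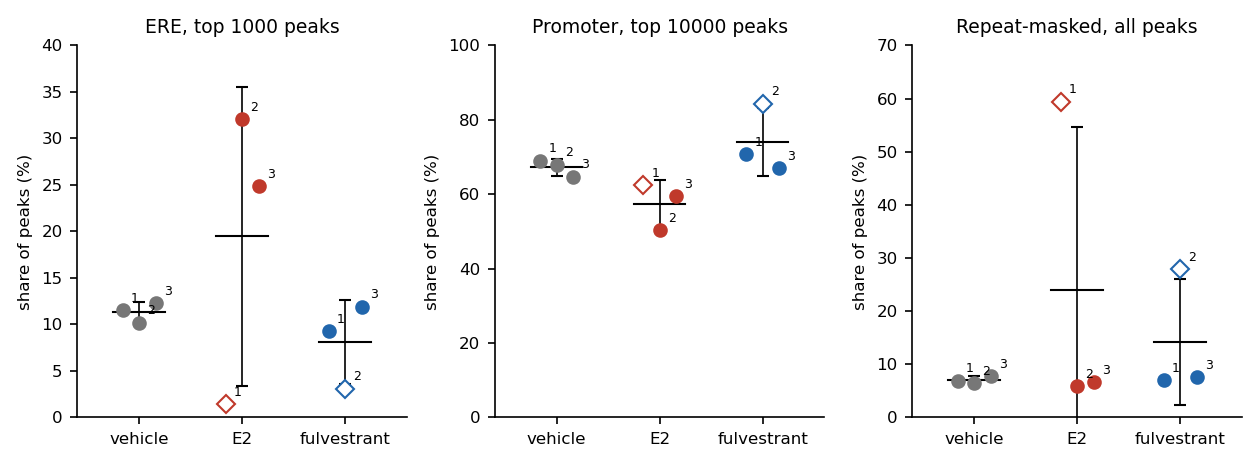
Each point is 1 library, numbered by replicate, with the group mean (line) and SD (bar); the axes give the share of peaks in percent. Open diamonds are E2 replicate 1 and fulvestrant replicate 2, which hold 59.4% and 27.9% repeat-masked peaks, while E2 replicates 2 and 3 have the highest ERE shares shown (32.1% and 24.9%).

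The ERE share fell off with rank in the E2 lists. In E2 replicate 2 it was 47.2% in the first 500 peaks, 17% in the next 500 and 2.28% at ranks 20001 to 40000. Replicate 3 went from 37.2% through 12.6% to 2.08%. Fulvestrant replicates 1 and 3 began at 13.6% and 15.4% and reached 1.12% and 1.13% in the last of these bins, against 0.6% to 0.7% in the upstream windows of that bin in these 4 libraries. The gap between the treatments was thus widest in the first bins, and all 4 lists lay above the upstream level to the last.

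**Figure D2:**
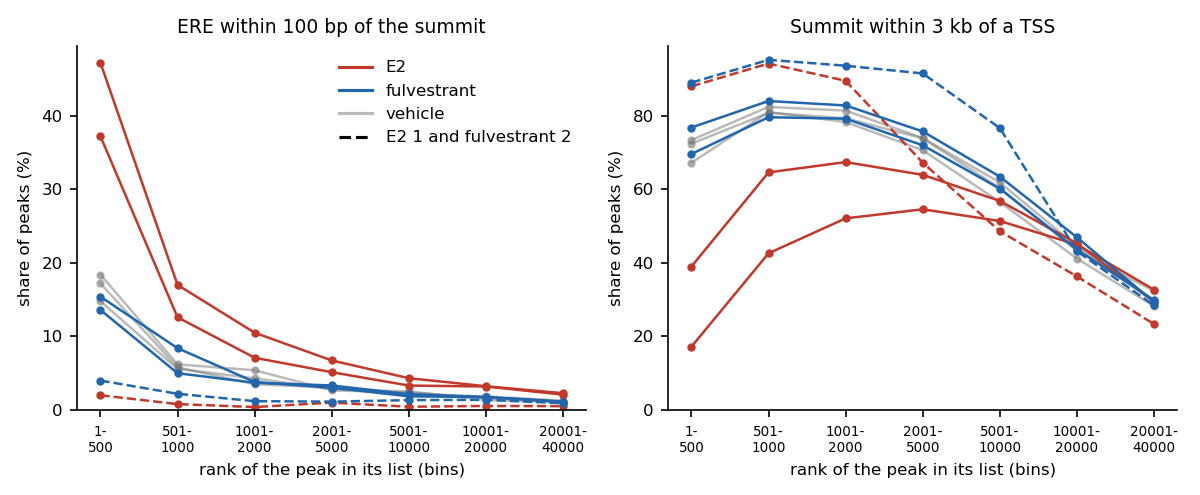
Share of peaks (percent) with an ERE within 100 bp of the summit (left) and with its summit no more than 3 kb from a gene start (right), by rank bin, 1 line per library. In the first bin the 2 solid E2 lines stand at 47.2% and 37.2% for the ERE, above all fulvestrant and vehicle lines, and at 17.2% and 39% for promoters, below them.

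Promoters, defined as summits no more than 3 kb from an annotated transcription start site (TSS), made the opposite pattern. Of the 10000 top-ranked peaks, 62.5%, 50.3% and 59.5% were at promoters with E2 and 70.8%, 84.3% and 67.0% with fulvestrant, so that the groups did not overlap (57.4% ± 6.39 against 74.0% ± 9.1, SD, n = 3 each). The exact permutation test gave p = 0.1 and, after adjustment, p = 0.682. With repeat-masked peaks removed the difference went from −16.6 to −10.0 percentage points (exact p = 0.4). Without the 2 libraries the means were 54.9% and 68.9%. The vehicle libraries had 67.2% ± 2.25 (SD, n = 3). Distal intergenic peaks took 23.7%, 24.2% and 19.4% of the same 10000 with E2 and 12.8%, 6.64% and 14.2% with fulvestrant (exact p = 0.1, adjusted p = 0.682), or 21.8% against 13.5% as means without the 2 libraries. Over whole lists the promoter share was 30.7% ± 6.33 with E2 and 39.0% ± 5.11 with fulvestrant (SD, n = 3 each; exact p = 0.2, adjusted p = 0.682), and 34.3% against 41.8% without the 2. The mean number of peaks was 1.39 times as high with E2 (exact p = 0.3), or 1.47 times without the 2 libraries, and the sequence they covered was 51.5, 40.6 and 54.9 Mb with E2 and 25.7, 42.4 and 27.5 Mb with fulvestrant (exact p = 0.2, adjusted p = 0.682 for both). Without the 2 libraries, E2 peaks covered 47.7 Mb and fulvestrant peaks 26.6 Mb, with 23.2 Mb ± 7.46 (SD, n = 3) in vehicle.

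Within the 1000 top-ranked peaks, the ERE shares of those outside promoters overlapped between the treatments. There were 701 and 482 such peaks in E2 replicates 2 and 3, with an ERE in 38.9% and 42.7%, and 196 and 254 in fulvestrant replicates 1 and 3, with 41.3% and 39.4%. In the vehicle lists the share was 39.3% to 43.4%. At promoters of the same 1000 the shares were 16.1% and 8.3% with E2 and 1.49% and 2.55% with fulvestrant. A fixed number of peaks per class gave another picture outside promoters, since it reaches further down the fulvestrant lists. Among the 250 top-ranked peaks outside promoters, 58% and 59.2% held an ERE in E2 replicates 2 and 3, 36% and 39.6% in fulvestrant replicates 1 and 3, and 38.8% to 41.2% in the vehicle libraries. The last of these 250 stood at ranks 291 and 352 with E2 and 1295 and 964 with fulvestrant. Among the 250 top-ranked promoter peaks the shares were 18.8% and 11.6% with E2 and 2.4% and 3.6% with fulvestrant. E2 replicate 1 had 2% in both classes. The choice of 250 peaks per class was made after the shares of the top 1000 were seen.

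Other motifs moved with the ERE from list to list. AP-1 sites (TGANTCA) lay in 14.2% and 10.3% of the 1000 top-ranked peaks of E2 replicates 2 and 3 and in 3.9% and 4.7% for fulvestrant replicates 1 and 3. With all 6 libraries the AP-1 means were 8.4% ± 6.95 and 3.37% ± 1.67 (SD, n = 3 each; exact p = 0.4, adjusted p = 0.714). Sites of TEAD and RUNX factors had 5.65% and 5.85% with E2 and 2.75% and 2.9% with fulvestrant, as means of the 4 libraries. With all 6 the TEAD means were 4.1% and 2.23% and the RUNX means 4.43% and 2.4% (exact p = 0.4 and 0.3). The GC-rich SP/KLF box, a feature of promoters, went the other way, with 5.6% against 11.8%, and so did the ETS site, with 2.5% against 5%. The ETS means with all 6 libraries were 3.73% and 5.67% (exact p = 0.3) and the SP/KLF means 14.5% and 15.3% (exact p = 1). In E2 replicate 1 the SP/KLF share was 32.3% and in fulvestrant replicate 2 it was 22.3%, the highest of the 12 lists. The glucocorticoid response element stood at 0.3% to 0.8% in all 6 libraries.

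Few regions had a peak in every library of one treatment and in none of the other. Overlapping peaks of the 12 lists were merged, and 194564 merged regions had a peak in at least 1 of the 6 libraries. Of these, 248 (0.127%) were found in all 3 E2 lists and no fulvestrant list, and 57 (0.0293%) in all 3 fulvestrant lists and no E2 list. Without the 2 libraries the counts were 9296 of 81584 (11.4%) and 340 (0.417%), so that both depend on single libraries. Without E2 replicate 1 alone they were 7486 and 92, and without fulvestrant replicate 1 alone the second was 475. The 9296 regions were 43.7% intronic, 36.4% intergenic and 17.1% promoters, against 27.5% promoters over all 81584. An ERE lay in 600 of them (6.45%, 95% Wilson interval 5.97% to 6.97%) and in 8 of the 340 fulvestrant regions (2.35%, 1.2% to 4.57%), against 3.3% of all 81584. AP-1 sites lay in 22.1% and 13.8%, against 16.2%. Regions in both libraries of a treatment offered more summits to search than regions in a single list. The shares are therefore not like for like. Most of the E2 regions were weak, at a median of the 57.9th rank percentile, and 112 stood in the top 10%. No peak was present in any vehicle list at 4874 of them (52.4%).

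The 5 strongest of these E2 regions were named by their nearest protein-coding genes Pank2, Utrn, Ets2, Atp8b1 and Gata4. At the Utrn region (chr10:12460808-12461564), in an intron near the gene of the dystrophin relative utrophin, the ranks were 443 and 1597 with E2, with an ERE and 100 and 74 fragments over the summit, and no peak in any fulvestrant list. The Pank2 region (chr2:131252165-131253395), intergenic, ranked 514 and 1298 with E2 at 93 and 79 fragments. It had 15 to 23 fragments in the vehicle lists and no peak with fulvestrant. At Gata4, a zinc-finger transcription factor gene, the intergenic region chr14:63295821-63296588 ranked 884 and 2640 and held an ERE. With all 6 libraries, the first of the 248 was an intronic region of Caln1, at ranks 41655, 1511 and 5820 with E2.

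The strongest fulvestrant regions missing from the E2 lists lay in the immunoglobulin heavy chain locus. The region chr12:113288457-113289111, whose summit was 192 bp from a TSS of Ighg2c, ranked 468, 14 and 2671 with fulvestrant. Its neighbour chr12:113287427-113288327 ranked 956, 426 and 16985. A region 144 bp from a TSS of Ighv1-62 (chr12:115372072-115372538) ranked 4304, 3355 and 8626. None of the 3 had a peak in any of the 9 other lists, vehicle included. What set these peaks was not tested.

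Regions present in every list were then compared by rank. With all 6 libraries, 10344 regions were shared, and limma on normal scores of their ranks called 0 (0%) higher and 0 (0%) lower with E2 at an adjusted p of 0.05, with 198 and 95 at an unadjusted p under 0.05 and a smallest adjusted p of 0.315. The E2 ranks were all above the fulvestrant ranks at 363 regions (3.51%) and all below at 453 (4.38%). With treatments assigned at random to the 6 libraries, such separation in either direction has a probability of 0.1, and 0.333 for 2 against 2. In the 4 libraries of like depth, 19597 regions were shared, and limma again called 0 (0%) and 0 (0%), with 1608 and 806 at an unadjusted p under 0.05 and a smallest adjusted p of 0.187. There the ranks did not overlap at 3732 regions with E2 higher (19%) and at 4862 with fulvestrant higher (24.8%). A limma fit with an intensity trend, added after the data were seen, called 738 of them higher (3.77%) and 63 lower (0.321%) with E2. Of the 738, 319 were intronic and 323 intergenic, and 233 (31.6%) held an ERE, against 5.11% of all 19597; of the 63, 50 were promoters and 4 held an ERE. These calls rest on 2 libraries per treatment and on the trend.

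Regions with an ERE stood higher in the E2 lists. Over the 1002 shared regions with an ERE, the median rank percentile (low is strong) was 16 and 22.4 in E2 replicates 2 and 3 and 38.7 and 39.4 in fulvestrant replicates 1 and 3. The ranks did not overlap, with E2 higher, at 47.5% of the regions with an ERE, at 59.2% of those outside promoters and at 71.9% of the 146 with an ERE without mismatch, beside the 19% of all shared regions given above. With all 6 libraries the 471 ERE regions had medians of 63.3, 23.2 and 27.0 with E2 and 37.6, 56.4 and 36.3 with fulvestrant (difference −5.6, exact permutation p = 0.6, adjusted p = 0.714). At EREs outside promoters the median difference in rank score was 0.65 in the 4 libraries, against −0.09 for promoters with an ERE and −0.23 for promoters without. AP-1 sites outside promoters and without an ERE had 0.18, and all regions outside promoters and without an ERE 0.11.

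Ranks within a list are relative, so the fragments over the summit were compared as well. No correction was made for differences in enrichment between libraries, so these numbers are relative too. In the 4 libraries of like depth, 19554 shared regions had a fragment number in all, scaled by depth where ratios are given. The number was higher in both E2 libraries than in both fulvestrant libraries at 11319 of them (57.9%) and lower in both at 190 (0.972%), and the median ratio of E2 to fulvestrant was 1.33. Promoters without an ERE had medians of 42 and 55 fragments with E2 and 41 and 37 with fulvestrant, with a median ratio of 1.26 (quartiles 1.14 and 1.40). Regions with an ERE outside promoters had 59 and 60 with E2 and 29 and 29 with fulvestrant, with a median ratio of 2.08 (quartiles 1.47 and 2.79). The ratio was over 2 at 52.7% of these, at 1.55% of the promoters without an ERE and at 9.41% of all. At EREs without mismatch it was 2.6 in the median. Promoters without an ERE thus ranked lower with E2 in the median while their median ratio was above 1. Peaks with −log10 p over 250, the strongest, gave no fragment number and are left out.

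**Figure D3:**
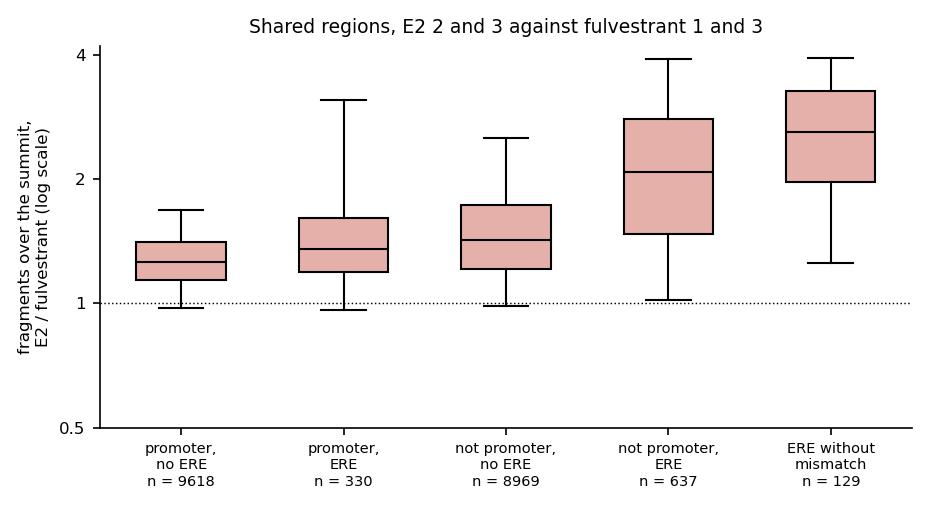
Ratio of fragments over the summit, mean of E2 replicates 2 and 3 over mean of fulvestrant replicates 1 and 3, scaled by depth (log axis), for shared regions by promoter and ERE; boxes are quartiles with the median, whiskers the 5th and 95th percentiles. The medians go from 1.26 at promoters without an ERE to 2.08 at EREs outside promoters and 2.6 at EREs without mismatch.

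Of the 10 shared regions with the smallest p and E2 higher in the 4 libraries, 4 held an ERE, and all 10 had more fragments in both E2 libraries. The fragment numbers come from the same peaks that set the ranks. More fragments with E2 thus follow from the choice of these regions and are no separate support. The ERE named by Mpped2, a metallophosphoesterase gene whose TSS is 116269 bp away, lies in the region chr2:106576509-106577830. The summit is in an annotated exon, and the nearest TSS of any gene was that of Gm14014, 3840 bp away. That region ranked 332 and 420 with E2 and 23834 and 26662 with fulvestrant, at 123 and 121 against 23 and 24 fragments, while the vehicle lists had 31 to 41. It had no peak in E2 replicate 1 or fulvestrant replicate 2, and its rank score was higher with E2 by 2.94 ± 0.37 (SE; limma, adjusted p = 0.187). Cirbp, which encodes a cold-inducible RNA-binding protein, had its ERE in a promoter region (chr10:80165274-80166400) at ranks 557 and 892 with E2 and 27016 and 34835 with fulvestrant. The fragments were 100 and 98 against 22 and 20, but E2 replicate 1 ranked it at 42188 and fulvestrant replicate 2 at 31535.

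The promoter region of Mast2, a microtubule-associated kinase gene, was among the 10 in both fits (chr4:116463366-116465338). It ranked 3710, 1629 and 1811 with E2 and 34339, 8398 and 31548 with fulvestrant, so the groups did not overlap with all 6 libraries. The fragments were 46, 82 and 91 with E2 and 23, 29 and 26 with fulvestrant, and 18 to 23 in vehicle, and the window held both an ERE and an AP-1 site. Fbxo32 encodes a ubiquitin ligase of muscle atrophy. The ERE region near it (chr15:58203229-58205252), in an intron 10621 bp from its TSS, had 117 and 104 fragments with E2 and 30 and 30 with fulvestrant. At Sgk1, a serum- and steroid-regulated kinase gene, an intergenic region 59607 bp from the TSS (chr10:21822084-21823009) held no ERE by the rule used and ranked 347 and 494 against 18231 and 17406. Pappa2, a protease gene of the insulin-like growth factor axis, had 70 and 76 against 17 and 15 fragments in an intron.

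With all 6 libraries, the smallest p belonged to a region at the edge of the Mylk2 promoter window (chr2:152913167-152915102), Mylk2 being a myosin light chain kinase gene of skeletal muscle. It ranked 93, 504 and 1131 with E2 and 21683, 9042 and 24084 with fulvestrant, with no overlap, and its rank score was higher by 2.87 ± 0.39 (SE; limma, adjusted p = 0.315). At Cmklr1, the chemerin receptor gene, the intronic ERE region (chr5:113632574-113634945) had 105, 148 and 112 fragments with E2 and 32, 36 and 25 with fulvestrant. Rai1, a chromatin regulator gene, had 135, 133 and 106 against 35, 46 and 46 at its promoter ERE. The vehicle libraries had 26 to 36 and 31 to 43 fragments at these 2 regions, so that fulvestrant lay near vehicle at both. Of the 10 regions of this fit with E2 higher, 3 held an ERE.

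None of the 10 regions with fulvestrant higher held an ERE in either fit. At the promoter of Fkbp5, an HSP90 cochaperone gene known as a target of steroid receptors, the region chr17:28511293-28514506 ranked 4763, 9351 and 5860 with fulvestrant and 50526, 30977 and 34299 with E2. The fragments were 39, 32 and 34 with fulvestrant, 10, 23 and 24 with E2 and 16 to 17 in vehicle, so fulvestrant stood above both. The E2 plus fulvestrant libraries stood higher still, at 46, 60 and 52. The difference in rank score (E2 minus fulvestrant) had an SE of 0.38 and did not pass (limma, adjusted p = 1). At Cenpb, a centromere protein gene, the promoter region had 34 and 33 fragments in fulvestrant replicates 1 and 3 and 23 and 26 in E2 replicates 2 and 3. Trmt1, a transfer RNA methyltransferase gene, ranked 3748, 4976 and 1573 with fulvestrant and 61952, 17076 and 12313 with E2, and its fragments were 44 and 53 in fulvestrant replicates 1 and 3 against 35 and 43 in E2 replicates 2 and 3. In the 4 libraries, 6 of these 10 regions had more fragments in both fulvestrant libraries, and 1 had more in both E2 libraries.

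**Figure D4:**
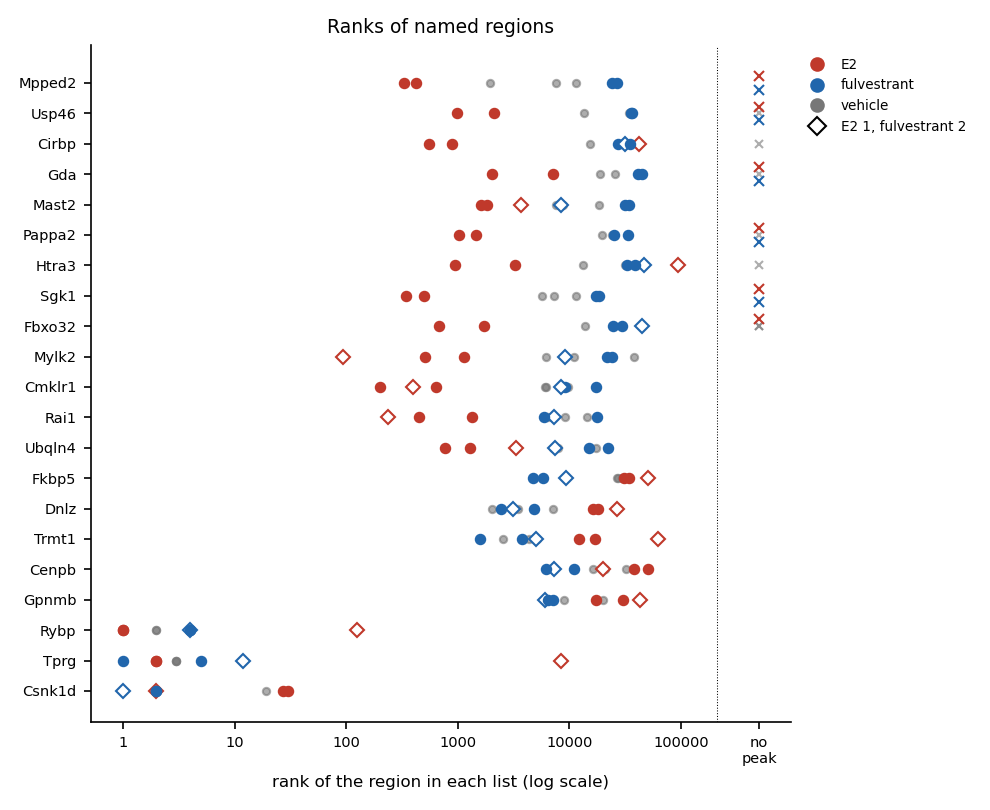
Rank of named regions in each list (log axis, low is strong), 1 point per library, with crosses at the right for lists without a peak there. From Mpped2 to Ubqln4 the filled E2 points lie to the left of fulvestrant, from Fkbp5 to Gpnmb to the right, and at Rybp, Tprg and Csnk1d both treatments hold ranks up to 30 apart from E2 replicate 1.

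Several of the strongest sites were common to both treatments. An intergenic ERE region whose nearest protein-coding TSS was that of Rybp (chr6:100058305-100061262) ranked 126, 1 and 1 with E2 and 4 in each fulvestrant list. The region near Tprg (chr16:25219855-25222704) ranked 2 and 2 in E2 replicates 2 and 3 and 1, 12 and 5 with fulvestrant, but 8408 in E2 replicate 1. The promoter of Csnk1d, a casein kinase gene, ranked 2, 30 and 27 with E2 and 2, 1 and 2 with fulvestrant and held no ERE. Of the 640 regions in the top 1000 of both E2 replicates 2 and 3, 296 were also in the top 1000 of fulvestrant replicates 1 and 3, and 20 stood beyond rank 10000 in both, 15 of them with an ERE. Of the 640 regions in the top 1000 of both fulvestrant lists, 0 stood beyond rank 10000 in both E2 lists. An ERE lay in 39.4% of the first 640 and 16.2% of the second, and 34.5% and 76.1% were promoters.

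Genes were described by the best rank of a peak in the gene body or within 10 kb on either side, as a percentile of each list. A peak was present in at least 1 of the 6 libraries at 19489 protein-coding genes. A gene without a peak in a list was placed last there, so genes could also separate by absence alone. In the 4 libraries of like depth the E2 lists were longer than the fulvestrant lists, which bears on the counts below. E2 percentiles were all better than the fulvestrant percentiles at 642 of them (3.29%), and the reverse held at 271 (1.39%). In the 4 libraries of like depth the counts were 4169 (21.4%) and 1525 (7.82%). The values below are described beside these shares and not tested, and they depend on how a gene is ranked. With each gene ranked among all genes instead, an alternative added after seeing the data, the split turned. Then 599 genes (3.07%) were higher and 1436 (7.37%) lower with E2, and 2772 (14.2%) and 7162 (36.7%) in the 4 libraries. This ranking counted genes without a peak in any of the 4 libraries, such as Gata3 and Stc2, among those lower. The turn therefore does not by itself show a direction of occupancy. With each peak given to its nearest TSS the direction over all genes was kept, at 1100 (5.57%) and 231 (1.17%), and 4863 (24.6%) and 1182 (5.99%) in the 4 libraries. Counts of a list under these assignments follow its own count.

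Of 30 textbook estrogen targets, 29 had a peak, and 4 ranked higher with E2 in all 6 libraries and 0 lower. In the 4 libraries 12 were higher and 3 lower. Ranked among all genes, 2 were higher (Esr1 and Tgfa) and 2 lower (Gata3 and Pdzk1), and 12 and 9 in the 4 libraries. Of the 9, Areg, Gata3, Pdzk1, Pkib and Stc2 had no peak in any of the 4. Their place there does not describe ESR1 occupancy. By nearest TSS the counts were 6 and 0, and 15 and 1. Esr1, the receptor's own gene, had best ranks of 2786, 242 and 314 with E2 and 3216, 13781 and 5631 with fulvestrant. Greb1, a growth regulator and a reference target of ESR1, had 7850, 685 and 3297 against 3660, 8791 and 7554, and its percentiles did not overlap. At its intronic ERE shown above (chr12:16760253-16760831, picked after its values were seen), E2 replicates 2 and 3 had 72 and 52 fragments, fulvestrant replicates 1 and 3 had 25 and 21, and vehicle had 19 to 28. Kcnk5, a potassium channel gene, had a peak in all 3 E2 lists, at ranks 43722, 3564 and 15042, and only in replicate 2 with fulvestrant, at 38937. Tgfa, an epidermal growth factor receptor ligand gene, had ranks of 50901, 26830 and 33274 with E2, and 71325 in fulvestrant replicate 2 alone. Pgr, the progesterone receptor gene, stood near the top with both ligands, at 15 and 8 in E2 replicates 2 and 3 and at 18 and 20 in fulvestrant replicates 1 and 3, against 21946 in E2 replicate 1 and 48559 in fulvestrant replicate 2. Cxcl12, a chemokine gene, ranked 144 and 479 with E2 and 1253 and 1180 with fulvestrant in the 4 libraries. Xbp1, Fkbp4 and Zfp36l2 were those lower with E2 there, Xbp1 at 4523 and 2413 against 457 and 977.

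Of 16 genes that the study's text ties to E2, 3 ranked higher with E2 in all 6 libraries (Ltbp1, Ncam1, Piezo2) and 0 lower, and 11 and 3 in the 4 libraries. This list was drawn from these samples and is not independent evidence. Ltbp1 encodes a protein that stores latent TGF-β in the matrix, and its best ranks were 4667, 491 and 727 with E2 and 18939, 8595 and 15258 with fulvestrant. Ncam1, an adhesion molecule gene, had 9382, 480 and 393 against 11924, 11007 and 7588. At Ccn3, a matricellular protein gene, the ranks were 191 and 226 against 670 and 784 in the 4 libraries. The 3 genes lower with E2 there were Adamts6 (458 and 541 against 172 and 315), Nrp2 (5342 and 3504 against 1169 and 1243) and Cxxc5. Of 33 genes that the study lists for E2 plus fulvestrant (1 further symbol of that list was not used here), 5 were higher (Dcbld2, Dlgap1, Mb21d2 and Plce1 among them) and 1 lower (Dpep1) with all 6 libraries, and 11 and 6 in the 4. This list too came from these samples. For these 2 lists, nearest TSS gave 10 and 2 and 12 and 5 in the 4 libraries, and ranking among genes 10 and 2 and 11 and 6.

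Of 18 TGF-β pathway genes, 2 were higher (Ltbp1 among them) and 0 lower, and 7 and 3 in the 4 libraries. By nearest TSS the counts were 5 and 0, and 10 and 1, and ranked among genes 3 and 0, and 4 and 3. Among the ligands, Tgfb2 ranked 12683 and 13454 with E2 and 25646 and 22465 with fulvestrant, while Tgfb1 had 2200 and 2969 against 3426 and 1165. The type II receptor gene Tgfbr2 had 1505 and 671 against 260 and 174, but by nearest TSS its direction turned and it was higher with E2, with all 6 libraries and in the 4. Of 26 matrix and myofibroblast genes, 1 was higher (Loxl2, a collagen cross-linking enzyme) and 2 lower (Mmp2 and Sparc), and 3 and 5 in the 4 libraries. The direction of this list turned with the assignment: by nearest TSS the counts were 2 and 2, and 10 and 3 in the 4 libraries, and ranked among genes 2 and 1, and 3 and 8. Loxl2 had ranks of 2986, 6793 and 3701 with E2 and 13807, 13810 and 22480 with fulvestrant. Mmp2, a gelatinase gene, had 695, 542 and 341 against 86, 117 and 126. The collagen genes Col1a1 and Col3a1 overlapped, Col1a1 at 8125, 2580 and 619 with E2 and 551, 2402 and 414 with fulvestrant.

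Of 20 Wnt pathway genes, 1 was higher (the secreted inhibitor Sfrp1) and 0 lower, and 4 and 1 in the 4 libraries. Sfrp1 ranked 806 and 1218 in E2 replicates 2 and 3 and 4876 and 5589 in fulvestrant replicates 1 and 3, and Dkk3, a secreted glycoprotein gene of the Dickkopf family, 157 and 278 against 1644 and 2642. Of 9 AP-1 genes, 0 were higher and 1 lower (Fosl1), and 1 and 1 in the 4 libraries. Of 16 coregulator genes, 0 were higher and 0 lower, and 3 and 2 in the 4 libraries. Nrip1, a ligand-dependent corepressor gene, was among the 3, at 2293 and 2752 with E2 and 4917 and 5563 with fulvestrant. In the 4 libraries, 20% of the Wnt and 18.8% of the coregulator genes were higher with E2, near the 21.4% of all genes. Of 17 cell cycle genes, 1 was higher (Ccnd2) and 0 lower, and 5 and 2 in the 4 libraries, where Cdkn1a, the p21 inhibitor gene, was lower at 7415 and 2453 against 1496 and 442. By nearest TSS the counts in the 4 libraries were 8 and 2 for the Wnt list, 2 and 0 for AP-1, 4 and 2 for coregulators and 6 and 1 for the cell cycle. Ranked among genes they were 4 and 4 (Wnt11, with no peak in the 4 libraries, among those lower), 1 and 2, 2 and 2, and 3 and 3. None of these 4 lists then had more genes higher than lower with E2, but over all genes 14.2% were higher and 36.7% lower. The cell cycle list had, with all 6 libraries, 2 and 1 by nearest TSS and 0 and 1 (E2f1) ranked among genes.

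**Figure D5:**
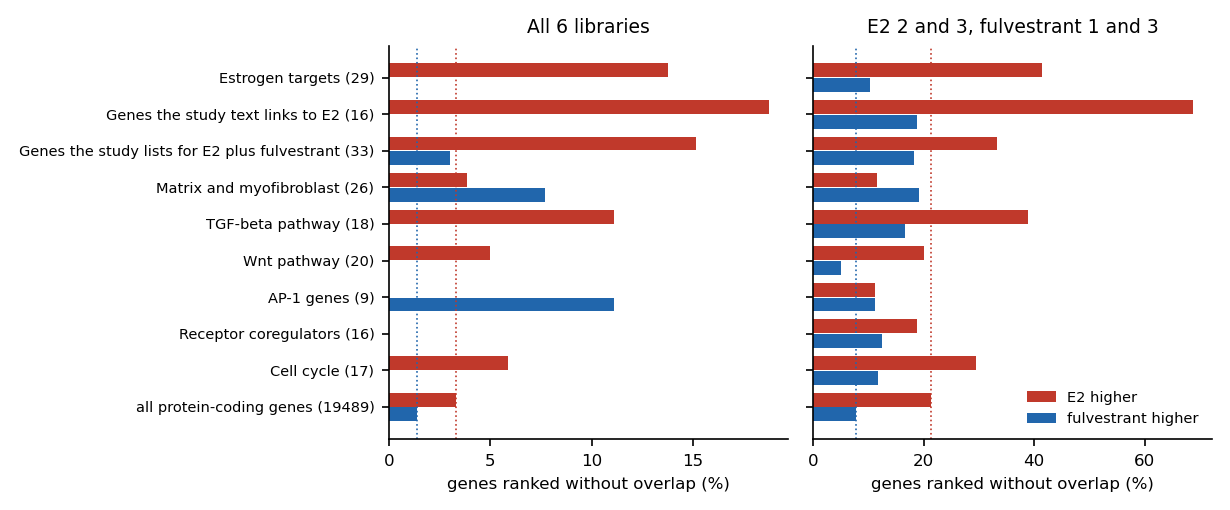
Share of the genes of each list (number with a peak in parentheses) whose best percentiles did not overlap between treatments, with E2 higher in red and fulvestrant higher in blue; dotted lines mark the shares over all protein-coding genes. In the 4 libraries of like depth (right) 41.4% of the estrogen targets were higher with E2, beside 21.4% of all genes, and 11.5% of the matrix and myofibroblast genes, a list whose direction turns by nearest TSS.

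The E2 plus fulvestrant libraries, which received both ligands, had an ERE in 23.3%, 33.5% and 33.3% of their 1000 top-ranked peaks. All 20 regions that were in the top 1000 of E2 replicates 2 and 3 and beyond rank 10000 in fulvestrant replicates 1 and 3 stood within the first 10000 of each of these 3 lists.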

How the data were processed

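ESR1 ChIP-seq was performed on primary fibroblasts with an ERα antibody by a commercial service. Per the labels and the study's methods, the authors used Trimmomatic 0.39 for trimming and Bowtie2 for alignment to mm10 (the sources give different versions, so none is named), removed duplicates with Picard 2.21.4 and called peaks per library with MACS2 2.2.71. They filtered blacklisted peaks, though whether before deposit was not given in the sources used here, nor was the use of the input as control. They also removed batch effects, but the labels name no batch, so none was fitted. The input library was left out. The deposited columns were a score, the fold enrichment (a ratio), −log10 p, −log10 q and the summit. The study's test on read counts over consensus peaks could not be run on peak lists, so ranks were compared.

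Peaks were ranked by −log10 q. Fragments over a summit were solved from fold and −log10 p (up to 250) under the Poisson model of the caller, and relative depth was the lowest background over the shortest peak. Summits were assigned to promoter (within 3 kb of a TSS), exon, intron or intergenic with GENCODE vM21 basic. Motifs were searched on both strands within 100 bp of the summit: ERE (GGTCANNNTGACC, at most 1 mismatch), AP-1 (TGANTCA), GRE (GNACANNNTGTNC), TEAD (ACATTCC), RUNX (TGTGGTT), SP/KLF (GGGCGGG) and ETS (CCGGAAG), among others. Overlaps between motifs were not resolved. Peaks overlapping by 1 bp were merged over the 12 lists. A merged region held a motif if the window of any summit from the 6 libraries did. Measures per library were compared by two-sided exact permutation tests, Benjamini-Hochberg adjusted over 25 measures, and ranks of shared regions, as normal scores, by limma 3.58.1 in R 4.3.3, with the adjusted p over all shared regions. Code was tested on simulated data.

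The comparison, the gene lists and the markers were chosen with earlier results of these data known. Named were the genes of the lists, the 10 shared regions with the smallest p in each direction, the 5 best regions of each separated set and the 5 best regions of each treatment, with all 6 libraries and without the 2; exceptions are stated, and some genes of the lists are not reported here by name. Alternatives were other q limits, promoter widths, numbers of top peaks, motif windows, merging rules, fold in place of q, removal of repeat-masked peaks, each library left out, and limma with a block, trend or weights.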

Additional observations from a re-analysis of the deposited data

How the results depend on the processing

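Alternatives were run for peak number, sequence covered, promoter shares and the distal intergenic share of all peaks. They were also run for the ERE and AP-1 shares of top-ranked peaks and the rank percentile of ERE regions. Other measures per library were only compared with and without both repeat-rich libraries. The differences that were rerun kept their sign under every alternative, with repeat-masked peaks removed and with each library left out. The exception was the median rank percentile of shared ERE regions (E2 minus fulvestrant −5.6), which became 1.87 without E2 replicate 2 and 0.314 without fulvestrant replicate 2, over a range of −23.1 to 1.87 with each library left out. The cause was not tested. The count of regions with E2 and not fulvestrant (248) ranged from 333 to 7486 with each library left out, was 9296 without both repeat-rich libraries and 8910 with repeat-masked peaks removed as well, 139 with repeat-masked peaks removed alone and 8047 when 2 of 3 libraries sufficed. The opposite count (57) ranged from 92 to 475, and was 340, 355 and 1006 under the first, second and last of these, 3 at −log10 q of at least 10 and 592 with summits merged within 200 bp. The limma counts of 0 higher and 0 lower held with the replicate block, with library weights, by fold, by whole-list percentile and with the trend, except for 738 and 63 with the trend and without both libraries. The replicate block gave 0 and 0 calls. Same-numbered libraries deviated from their group means with r = −0.32, −0.47 and 0.32. The first and second of these pairs each hold a repeat-rich library. The third stood beside 0.23 to 0.29 for the other pairs among the 4 libraries of like depth. Whether the numbers pair the samples therefore cannot be told. Of 174 fixed-list genes with a peak (175 by nearest TSS), 16 were higher and 4 lower with E2 (9.2% and 2.3%), beside 3.29% and 1.39% of all genes. By nearest TSS the counts were 23 and 3 (13.1% and 1.71%, beside 5.57% and 1.17%). Ranked among genes they were 14 and 6 (8.05% and 3.45%, beside 3.07% and 7.37%). Without both libraries they were 51 and 26 (29.3% and 14.9%, beside 21.4% and 7.82%). Ranked among genes without both, they were 44 and 39 (25.3% and 22.4%, beside 14.2% and 36.7%). Genes without any peak in those libraries were among the 39. Alternatives pairing 2 choices, merging over 6 lists and ranking among genes were added after seeing the data.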

Other observations

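The CCAAT box, the core of NF-Y sites, lay in 21.0% of the 1000 top-ranked peaks of E2 replicates 2 and 3 and 14.8% for fulvestrant replicates 1 and 3, and in 15.2% ± 1.18 (SD, n = 3) with vehicle. The GC-rich PLAG motif reached 38.8% for E2 replicate 1 and 33.9% for fulvestrant replicate 2, while the other 4 lists had 8.2% to 19.9%. The top 1000 peaks of E2 replicate 1 were shared with the top 1000 of fulvestrant replicate 2 at 60.7%, and with those of E2 replicates 2 and 3 at 15% and 26%. Between E2 replicates 2 and 3 the share was 64.8%. On chromosome Y, E2 replicate 1 had 1193 peaks and fulvestrant replicate 2 had 206, against 22 to 41 in the other 4 libraries. The median peak width was 459 and 528 bp in E2 replicates 2 and 3 and 432 bp in each of fulvestrant replicates 1 and 3.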
